A study of Mus musculus with 117 samples.

Results

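The genes described here are 7 major urinary protein genes, Mup1, Mup2, Mup3, Mup4, Mup5, Mup20 and Mup21. They were taken by name from a list of 7 genes, and all 7 were found among the 21523 protein-coding genes of chromosomes 1 to 19 and X that were used. Major urinary proteins are small secreted proteins of the lipocalin family, made mostly by the liver and excreted in urine, where they bind and slowly release volatile pheromones. Their genes arose by repeated tandem duplication and form a single cluster on chromosome 4. In liver, most are more active in males, under the pulses of growth hormone that act through the kinase Jak2 and the transcription factor Stat5b. Mup20 encodes darcin, a protein in male urine that attracts females, whereas Mup4 and Mup5 are best known from glands and nasal tissue rather than from liver.

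Chromatin was profiled by ChIP-seq in liver parenchymal cells (hepatocytes) of females aged 12 weeks. Of the 9 inbred strains, WSB/EiJ, PWK/PhJ and CAST/EiJ are wild-derived, and NZO/HlLtJ, NOD/ShiLtJ, DBA/2J, C57BL/6J, A/J and 129S1/SvImJ are classical laboratory strains. Each strain had 13 libraries, 12 of the marks H3K4me1, H3K4me3, H3K27ac and H3K27me3 from 3 mice and 1 of input chromatin. The deposited result is 1 segmentation per strain, in which each 200-bp bin carries the number of 1 of 14 chromatin states, so a strain is 1 value and no error between mice can be given. All mice were female, so the chromatin is that of the sex in which these genes are known to be less active. Each gene was described over its span with 2 kb added to each side, which gave 587 bins for the 7 genes, with exons and introns not separated. The mark content of the states is not given in the sources used here, and the numbers serve as names.

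Known genes show where these states lie. State 1 covered a median of 59.1% of the bins of 12 hepatocyte marker genes, such as Alb and Apoa1, against 2.43% over all protein-coding genes. State 13 covered a median of 59.9% of the bins of 6 developmental regulators that liver does not use and 54.8% of those of 6 Kupffer cell and leukocyte markers. State 1 was at a median of 0% in both of these lists, and no Kupffer cell or leukocyte marker passed the test for more state 1 than the genome. State 3 lay at 39.0% of the 17274 annotated gene starts on average, and state 14 covered 72.3% of the genome.

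The promoter sequences are shown because the members are close copies and because reads from close copies are hard to place. RefSeq holds 4 of the 7 (assembly GRCm38.p6, the 250 bases before the start, 5′ to 3′), and the capitals mark TATATAA, the TATA-box letters.
Mup4 (chr4:59960668-59960917, minus strand): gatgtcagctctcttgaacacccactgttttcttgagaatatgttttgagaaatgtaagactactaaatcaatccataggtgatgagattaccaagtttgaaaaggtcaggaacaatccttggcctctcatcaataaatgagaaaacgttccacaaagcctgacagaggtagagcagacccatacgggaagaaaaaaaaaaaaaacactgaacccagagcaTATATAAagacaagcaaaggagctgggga
Mup2 (chr4:60139857-60140106, minus strand): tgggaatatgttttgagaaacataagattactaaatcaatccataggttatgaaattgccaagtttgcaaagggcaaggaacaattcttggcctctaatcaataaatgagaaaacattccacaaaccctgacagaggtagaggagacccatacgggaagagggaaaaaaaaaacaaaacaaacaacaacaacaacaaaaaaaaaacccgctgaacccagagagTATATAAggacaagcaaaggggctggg
Mup3 (chr4:62087318-62087567, minus strand): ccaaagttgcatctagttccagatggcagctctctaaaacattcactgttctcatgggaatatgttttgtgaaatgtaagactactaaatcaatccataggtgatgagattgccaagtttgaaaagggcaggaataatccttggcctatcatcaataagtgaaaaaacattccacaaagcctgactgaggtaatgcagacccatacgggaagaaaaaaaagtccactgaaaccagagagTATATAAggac
Mup21 (chr4:62150842-62151091, minus strand): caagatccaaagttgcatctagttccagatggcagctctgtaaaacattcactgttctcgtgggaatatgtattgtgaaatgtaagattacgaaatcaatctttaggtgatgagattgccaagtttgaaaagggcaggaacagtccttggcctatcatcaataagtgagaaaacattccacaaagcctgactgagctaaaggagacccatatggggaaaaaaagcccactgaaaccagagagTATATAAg

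All 4 promoters held TATATAA, which began 29 bases before the start in Mup4, 27 in Mup2, 11 in Mup3 and 8 in Mup21. The motif, searched on both strands, was found in 3.26% of the 27025 RefSeq mouse promoters of this length and in 11 of the 14 Mup promoters. These 14 are close copies and not independent of each other. The search stopped at the annotated start, so a motif that reaches past it is missed. The letters TTCNNNGAA, the core recognised by Stat proteins, were in none of the 14 Mup promoters and in 7.18% of all promoters. Aligned over the bases they share, with 50 bases after the start included, Mup3 and Mup21 were 93.3% identical and Mup4 and Mup3 were 88.3% identical. Mup2 was more distant, at 81.0% identity to Mup4, 76.8% to Mup3 and 74.7% to Mup21. It was closer to the other genes of the cluster, with 98.5% identity to Mup11.

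Words of 50 bases were used as a rough measure of how far a read could fit more than 1 promoter. A word counted only when all its bases matched. Only RefSeq promoters were searched, 14 of them of Mup genes, and not the gene bodies. Of the 251 words of the Mup2 promoter, 163 (64.9%) were also found in the promoter of another gene, 9 genes in all. For Mup4 this share was 2.79%, and for Mup3 and Mup21 it was 0%. Among 27008 other genes, 18.6% shared any word when 1 word in 10 was looked up. The effect of read placement on the states was not tested.

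The 7 genes fell into different chromatin. Mup1, Mup2 and Mup3 were covered mainly by state 1, as the hepatocyte markers were, with 57.2% ± 23.2, 59.1% ± 20 and 70.3% ± 11.2 of their bins (SD, n = 9 strains). Mup20 and Mup21 had less state 1, at 17.5% ± 5.91 and 15.4% ± 5.40, and more of states 2 and 4. Mup5 had 3.37% ± 3.17 and Mup4 had 0% in every strain. State 13 covered 82.2% ± 33.2 of Mup4 and 48.4% ± 32.0 of Mup5, against 1.94% of Mup1, 0.542% of Mup2 and 0% of Mup3, Mup20 and Mup21. Counting each gene in each strain, the most frequent state was 1 in 26 of 63 combinations, 13 in 15, 4 in 12, 14 in 9 and 5 in 1.

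**Figure D1:**
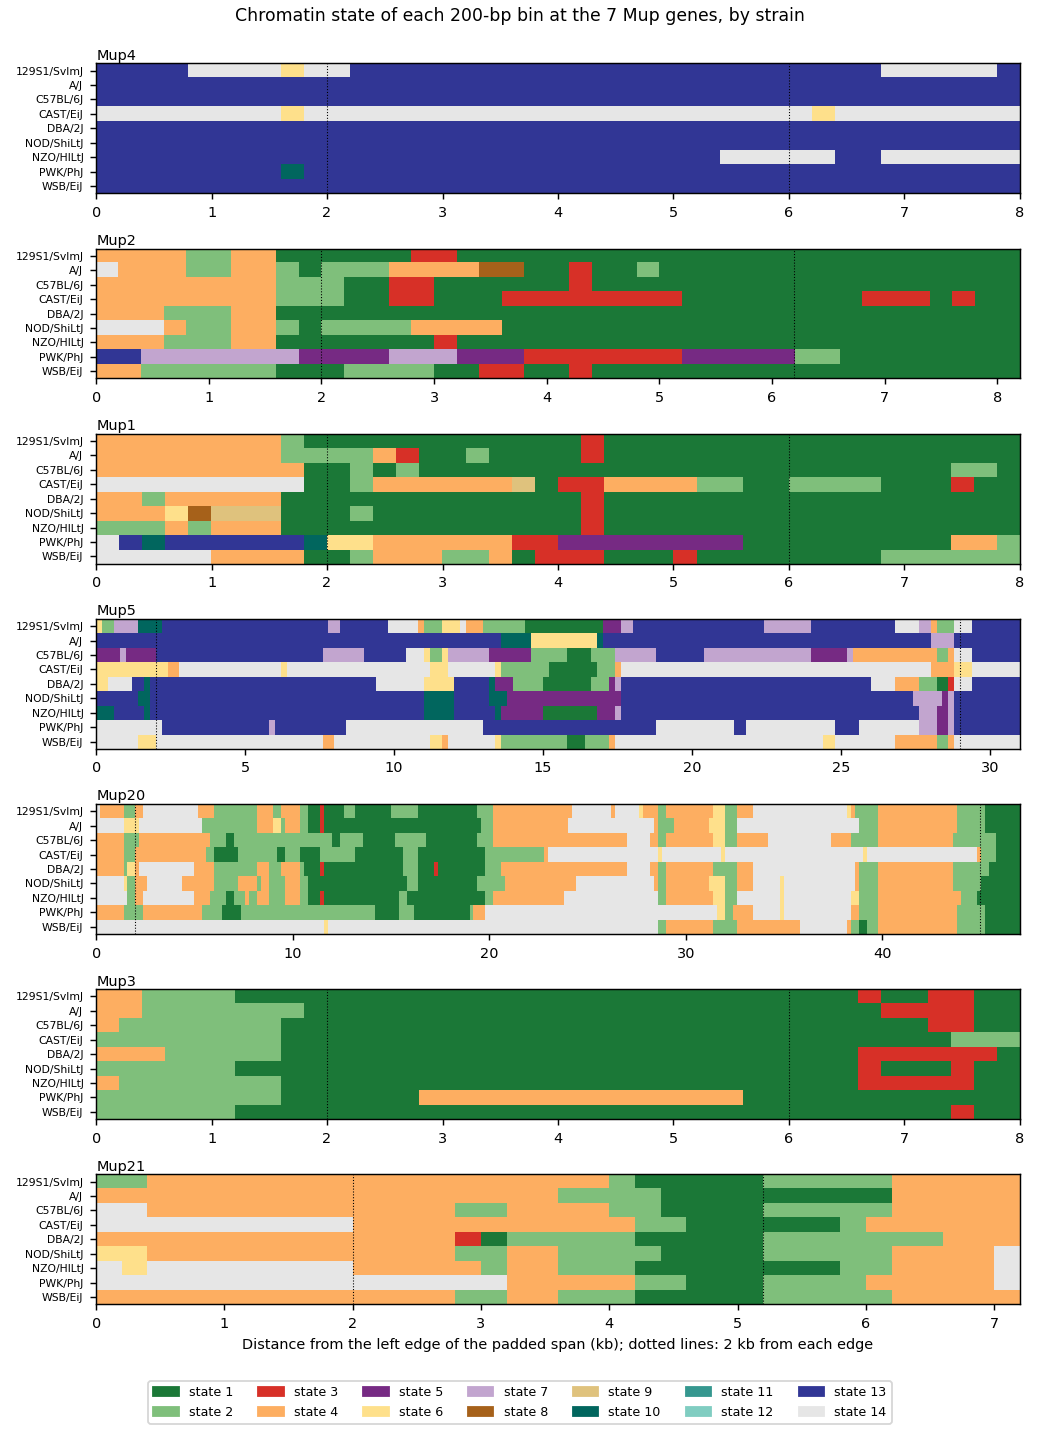
Chromatin state of every 200-bp bin of the 7 genes with 2 kb on each side, 1 row per strain, against the distance in kb from the left edge, with colours for the 14 states. State 1 fills most of Mup2, Mup1 and Mup3 in the laboratory strains, and the smallest share of each in PWK/PhJ. State 13 covers 70% or more of Mup4 in all strains but CAST/EiJ, and PWK/PhJ shows states 5 and 7 at Mup2.

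Each gene was set against the share of the same state in the genome of the same strain, by flipping the signs of the 9 differences in all possible ways (an exact permutation test, two-sided). Its smallest possible p is 0.0039, and p-values were adjusted over all 21523 genes by the Benjamini-Hochberg method. All 7 genes had more of their bins outside state 14 than the genome, a call that 53.4% of all genes also received. With states 13 and 14 counted as one, Mup4 instead lay below the genome, by a difference of -10.6 points. For state 1, 5 of the 7 were higher, against 46.0% of all genes. These were Mup1, Mup2, Mup3, Mup20 and Mup21, each higher in 9 of 9 strains, from 13.1 ± 5.35 points at Mup21 to 67.9 ± 11.1 points at Mup3 (SD, n = 9, exact test, adjusted p = 0.0046). Mup4 was lower than the genome in state 1, and Mup5 did not pass the test, with a difference of 1.02 points (exact test, adjusted p = 0.349).

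State 2 was higher than the genome in 5 of 7, the same genes as state 1, against 22.9% of all genes. State 4 was higher in 4 of 7, Mup1, Mup2, Mup20 and Mup21, against 20.7% of all genes. State 13 was higher in 2 of 7, against 17.9% of all genes: Mup4 by 66.3 ± 33.0 points, in 8 of 9 strains (exact sign-flip test, adjusted p = 0.0094), and Mup5 by 32.5 ± 31.9 points, in 7 of 9 (adjusted p = 0.0226). States 5 and 7 are rare, and each was higher in 1 of the 7, Mup5, against 3.06% of all genes for state 5 and 1.27% for state 7.

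**Figure D2:**
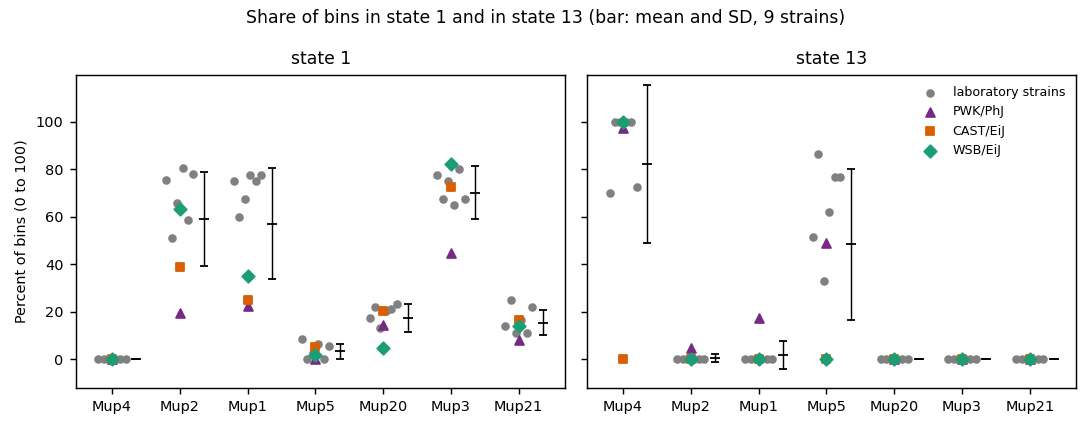
Percent of each gene's bins in state 1 (left) and in state 13 (right), 1 point per strain, with the wild-derived strains as coloured shapes and the mean and SD of the 9 strains as a bar beside the points. Mup4 lies at 0% in state 1 in all 9 strains, and CAST/EiJ is the only strain at 0% in state 13 there.

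Mup4 lies at chr4:59956804-59960667, the left end of the cluster. State 13 covered 100% of its bins in A/J, C57BL/6J, DBA/2J, NOD/ShiLtJ and WSB/EiJ, 97.5% in PWK/PhJ, 72.5% in NZO/HlLtJ, 70.0% in 129S1/SvImJ and 0% in CAST/EiJ. The gene thus sat wholly or mostly in state 13 in 8 strains, while CAST/EiJ had state 14 in 95% of the bins and state 6 in the other 5.0%. In NOD/ShiLtJ, WSB/EiJ, DBA/2J, C57BL/6J, A/J and PWK/PhJ a single state 13 segment covered the gene and reached beyond it on both sides, with lengths of 32.2, 30.0, 29.4, 28.4, 17.6 and 12.0 kb. CAST/EiJ differed from the other 8 strains at 93.1% of the bins of Mup4 on average, and the other strains at 20% to 35.3%. Around its start, within 1 kb, state 13 averaged 81.8% and state 1 was absent in all 9 strains.

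Mup2 lies at chr4:60135913-60139977. State 1 covered 80.5% of its bins in DBA/2J, 78.0% in NZO/HlLtJ, 75.6% in 129S1/SvImJ, 65.9% in C57BL/6J, 63.4% in WSB/EiJ, 58.5% in NOD/ShiLtJ, 51.2% in A/J, 39.0% in CAST/EiJ and 19.5% in PWK/PhJ. PWK/PhJ was lowest, and 53.7% of its bins there were in states 5 and 7, which were at 0% in the other 8 strains. CAST/EiJ, the next lowest, had state 3 over 34.1% of the gene, the highest share of any strain. In 129S1/SvImJ, NZO/HlLtJ and DBA/2J a single run of state 1 that reached the gene measured 23.2 to 24.8 kb. Within 1 kb of the start, state 1 filled 100% of the bins in 7 strains, 72.7% in CAST/EiJ and 27.3% in PWK/PhJ, where state 5 held 45.5%.

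Mup1 lies at chr4:60498012-60501960. Its state 1 share was 77.5% in DBA/2J and NZO/HlLtJ, 75% in 129S1/SvImJ and NOD/ShiLtJ, 67.5% in C57BL/6J, 60.0% in A/J, 35.0% in WSB/EiJ, 25% in CAST/EiJ and 22.5% in PWK/PhJ. The 6 laboratory strains were all above the 3 wild-derived strains. This separation in state 1 was not tested, and how many of all genes show it was not counted. PWK/PhJ again had states found at this gene in no other strain, with 20% of bins in state 5 and 17.5% in state 13. State 1 was the most frequent state in all 9 strains, or tied for it, and the right end of the gene had more of it (85.9% ± 25.4 within 1 kb) than the left end (41.4% ± 28.1).

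Mup3 lies at chr4:62083476-62087317 and varied least between strains. No bin was in state 14 in any strain. State 1 covered 82.5% in WSB/EiJ, 80% in NOD/ShiLtJ, 77.5% in 129S1/SvImJ, 75% in C57BL/6J, 72.5% in CAST/EiJ, 67.5% in A/J and NZO/HlLtJ, 65.0% in DBA/2J and 45% in PWK/PhJ. The strain that stood apart was again PWK/PhJ, but with state 4 in 35.0% of the bins and with no bin in state 5 or 7. Of the 40 bins, 13 had the same state in all 9 strains, 10 of them in state 1. PWK/PhJ alone differed from the other 8 at a further 14.

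Mup21 lies at chr4:62147832-62150841, the right end of the cluster. Its most frequent state was 4 in 8 strains, from 30.6% in NZO/HlLtJ to 63.9% in 129S1/SvImJ and A/J. In PWK/PhJ it was 14, at 47.2%, with state 4 at 27.8%. State 1 kept to the start: the bin holding the start was in state 1 in all 9 strains, although state 1 covered only 8.33% to 25% of the gene. Of 17274 gene starts, 3.87% were in state 1 in all 9 strains, among them Mup3 and Mup21.

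Mup20, the darcin gene, lies at chr4:62011337-62054143 and has the longest span of the 7, at 42807 bp. It had no bin in states 5, 7 or 13 in any strain. Its share outside state 14 was 90.6% in C57BL/6J, 80.4% in DBA/2J, 76.6% in 129S1/SvImJ, 74.0% in NOD/ShiLtJ, 68.9% in NZO/HlLtJ, 67.7% in A/J, 64.7% in PWK/PhJ, 54.9% in CAST/EiJ and 34.5% in WSB/EiJ. The span was then divided at its middle, a split made after the states had been seen and described without a test. In the left part (117 bins), 0.855% of the bins of WSB/EiJ were outside state 14, against 80.3% to 100% in the other 8 strains. In the right part (118 bins) it was CAST/EiJ that stood low, at 11.9%, against 44.9% to 81.4% in the other 8. WSB/EiJ was at 67.8% in the right part and CAST/EiJ at 98.3% in the left. State 1 covered 21.4% to 37.6% of the left part in 8 strains and 0% in WSB/EiJ, and 5.08% to 9.32% of the right part in all 9, with WSB/EiJ at 9.32%.

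Mup5 lies at chr4:61831319-61858043 and was the most variable of the 7. Its share outside state 14 was 100% in A/J, NOD/ShiLtJ and NZO/HlLtJ, 96.1% in C57BL/6J, 91.6% in 129S1/SvImJ, 87.7% in DBA/2J, 53.5% in PWK/PhJ, 29.7% in CAST/EiJ and 25.8% in WSB/EiJ. The laboratory strains and the wild-derived strains did not overlap, and how many of all genes show this was not counted. Of the 19813 genes tested, 1522 had an unadjusted p under 0.05 in the exact permutation test given below, and 0 passed after adjustment. Those 1522 are not limited to genes without overlap. State 13 covered 86.5% of the bins in A/J, 76.8% in NOD/ShiLtJ and NZO/HlLtJ, 61.9% in DBA/2J, 51.6% in 129S1/SvImJ, 49% in PWK/PhJ and 32.9% in C57BL/6J, and was at 0% in CAST/EiJ and WSB/EiJ. C57BL/6J differed from the other laboratory strains in having 40.6% of the bins in states 5 and 7, where the other 8 strains had 0% to 16.8%. State 1 occurred in 6 strains, at 1.94% to 8.39% of the bins, and was at 0% in A/J, NOD/ShiLtJ and PWK/PhJ.

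Windows of 1 kb on each side of the starts, or of both gene ends where RefSeq gave no start, separated the genes in a similar way. State 1 was the most frequent state in 34 of 90 windows, counted over the genes and strains. It averaged 88.9% ± 24.8 at the start of Mup2, 88.9% ± 11.8 at Mup3 and 49.5% ± 17.7 at Mup21 (SD, n = 9 strains). At Mup20 it averaged 32.3% at the right end and 0% at the left, and at Mup5 2.02% at the right end and 0% at the left. Over all gene starts, state 1 was found at 9.42% of the starts themselves.

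The 3 wild-derived strains, CAST/EiJ, PWK/PhJ and WSB/EiJ, were compared with the 6 laboratory strains in the share of bins outside state 14, with limma across the 19813 genes whose share varied. Mup5 averaged 36.3% in the wild-derived and 95.9% in the laboratory strains, a fall by 59.6 points (SE 6.04, limma, adjusted p = 0.0178). It was 1 of 11 genes called lower in the wild-derived strains, or 0.0555% of those tested, and 2 genes, or 0.0101%, were called higher. The limma adjusted p for Mup5 was 0.0522 without A/J or without NZO/HlLtJ, 0.0589 without C57BL/6J and 0.0667 without 129S1/SvImJ, and with states 13 and 14 counted as one its difference was -11.5 points (adjusted p = 0.657). An exact permutation test over the 84 ways to choose 3 of 9 strains gave p = 0.0119, the smallest it allows, and an adjusted p of 0.467.

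None of the other members passed. Mup20 averaged 51.3% in the wild-derived and 76.4% in the laboratory strains (difference -25 points, limma, adjusted p = 0.440). For Mup1 the means were 87.5% and 100% (limma, adjusted p = 0.459, or 0.0248 for a difference of -18.3 points with states 13 and 14 counted as one), for Mup21 75% and 94.0% (0.587) and for Mup4 68.3% and 90.8% (0.670). Mup2 averaged 100% and 98.4% (limma, adjusted p = 0.764), and Mup3 was at 100% in all 9 strains and could not be tested. The median difference over the 6 tested members was -20.7 points, against -2.17 over all genes tested and 1.22 over 14 other Mup genes. At an unadjusted p under 0.05, limma called 1749 genes, 3 of them members.

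**Figure D3:**
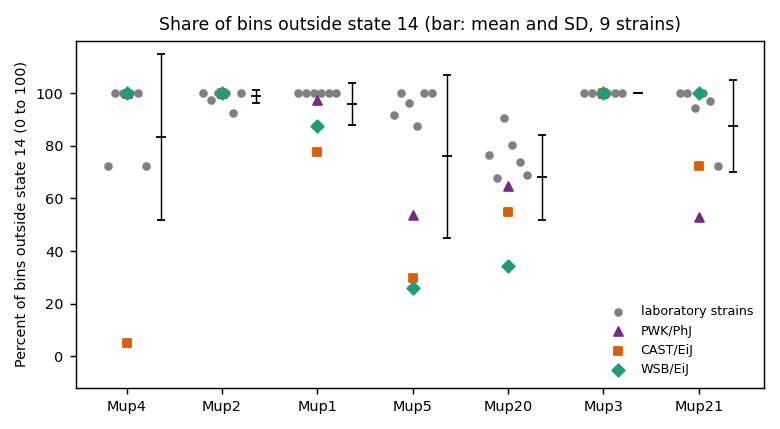
Percent of each gene's bins outside state 14, 1 point per strain, grey for the 6 laboratory strains and coloured shapes for the 3 wild-derived strains, with the mean and SD of the 9 strains as a bar. At Mup5 the wild-derived strains lie between 25.8% and 53.5% and the laboratory strains between 87.7% and 100%.

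The members were also compared with each other within strains. Of the 21 pairs, 3 differed in the share outside state 14 by the exact sign-flip test with p-values adjusted over the 21 pairs, and all 3 involved Mup20. Its padded span holds 235 bins, against 40 or 41 at Mup1, Mup2 and Mup3, so the shares cover unlike lengths. Mup20 was lower than Mup3 by a mean of 32.0 points, than Mup2 by 30.9 and than Mup1 by 27.8, each in 9 of 9 strains (exact p = 0.0039, adjusted p = 0.0273). With any strain but PWK/PhJ left out no pair passed, at an adjusted p of 0.0547 for each of these 3. The smallest exact p from 8 strains is 0.0078, and without PWK/PhJ 4 pairs passed (adjusted p = 0.0410). With 5 kb of padding the difference between Mup2 and Mup20 was 14.3 points (exact test, adjusted p = 0.109). Mup2 minus Mup1 was 3.08 ± 8.96 points (SD, n = 9, exact test, adjusted p = 0.4375). In the share of state 1, a comparison added after the data had been seen, 17 of 21 pairs differed. The 4 that did not were Mup2 with Mup1, Mup1 with Mup3, Mup2 with Mup3 and Mup20 with Mup21. Their differences, first gene minus second, were 1.86 ± 12.95, -13.1 ± 22.0, -11.2 ± 16.5 and 2.06 ± 5.50 points. The order of the state 1 share was Mup3, Mup2 and Mup1, then Mup20 and Mup21, then Mup5, then Mup4.

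Divergence between strains was measured as the percent of bins whose state differed, averaged over the 36 pairs of strains. The median protein-coding gene had 19.75%, and 7 of 7 members were above it. Mup5 had 62.3%, higher than 99.8% of all genes, Mup1 47.2%, Mup2 42.1%, Mup20 41.1%, Mup21 39.0%, Mup4 31.6% and Mup3 21.9%. The most frequent state was not the same in all 9 strains in 5 of the 7, against 34.1% of all genes, and was the same in Mup1 and Mup3. The strain that differed most was PWK/PhJ at Mup1, Mup2, Mup3 and Mup21, CAST/EiJ at Mup4 and Mup5, and WSB/EiJ at Mup20. At Mup2, PWK/PhJ differed from the others at 78.7% of the bins on average, and the next strain, CAST/EiJ, at 52.4%.

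**Figure D4:**
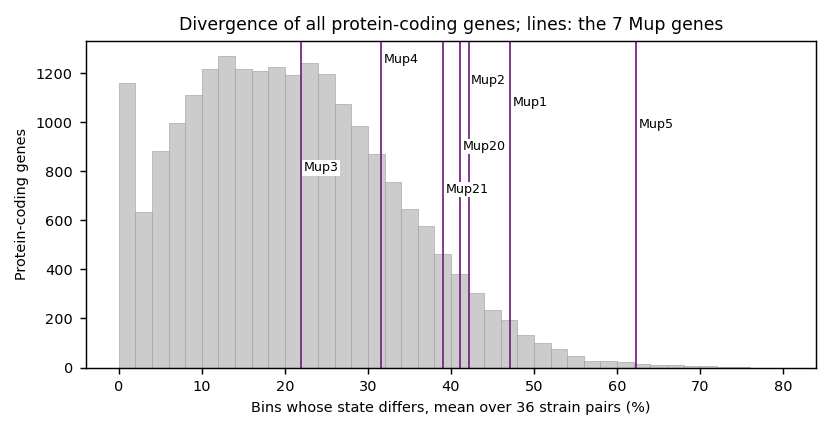
Number of protein-coding genes by divergence, the percent of bins whose state differs averaged over 36 strain pairs, in steps of 2 points, with the 7 Mup genes as vertical lines. Mup3 lies near the middle of the distribution at 21.9% and Mup5 near its upper end at 62.3%.

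PWK/PhJ carried states 5 and 7 across much of the cluster. From 2 kb left of Mup4 to 2 kb right of Mup21 the cluster spans 2198.2 kb, and these states covered 16.7% of its bins in PWK/PhJ, 2.86% in NOD/ShiLtJ, 1.95% in C57BL/6J, 0.428% in 129S1/SvImJ, 0.373% in NZO/HlLtJ, 0.20% in DBA/2J, 0.0546% in A/J and 0% in CAST/EiJ and WSB/EiJ. The cluster is 0.0893% of the autosomal bins, yet held 18% of all autosomal bins of states 5 and 7 in PWK/PhJ. It held 6.03% in NOD/ShiLtJ and 2.09% in C57BL/6J. The share was 0.555% in NZO/HlLtJ, 0.544% in 129S1/SvImJ, 0.403% in DBA/2J, 0.141% in A/J and 0% in CAST/EiJ and WSB/EiJ. State 13 of the cluster was also highest in PWK/PhJ, at 27.3%, followed by NOD/ShiLtJ at 12.7% and lowest in CAST/EiJ at 0.273%. State 1 was lowest in PWK/PhJ, at 3.12%, and highest in NZO/HlLtJ, at 16.4%.

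**Figure D5:**
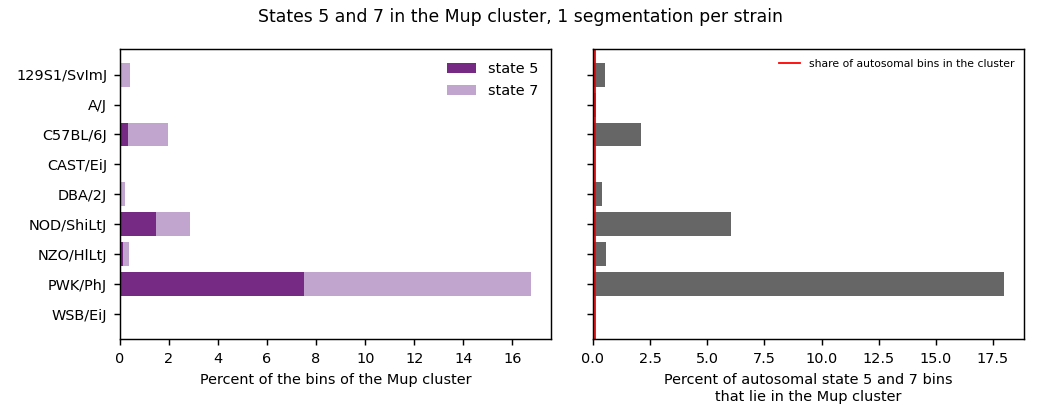
Left, percent of the bins of the Mup cluster in state 5 and in state 7 by strain, as stacked bars. Right, percent of each strain's autosomal state 5 and 7 bins that lie in the cluster, with a red line at the cluster's share of autosomal bins. PWK/PhJ reaches 16.7% on the left and 18% on the right.

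The members differed in whether they took part in this. In PWK/PhJ, states 5 and 7 covered 53.7% of Mup2, 20% of Mup1 and 4.52% of Mup5, and 0% of Mup3, Mup4, Mup20 and Mup21. Of the 50-base words of their promoters, Mup3 and Mup21 shared 0% exactly with the RefSeq promoters of other genes, Mup4 2.79% and Mup2 64.9%. These words cover the promoters alone, whereas the states were counted over the padded spans. Mup10 shared 5.98% of its words and had 61.0% of its bins in states 5 and 7 in PWK/PhJ, and Mup7 had 11.2% and 48.8%. The words count exact matches alone. Over the bases aligned, Mup10 was 94.7% identical to Mup2 and Mup7 98.5% identical to Mup11. Mup3 and Mup21, both at 0% in states 5 and 7 in PWK/PhJ, were 93.3% identical to each other. Mup4, also at 0%, was 92.3% identical to Mup6. At the 15 other Mup genes the share of states 5 and 7 in PWK/PhJ ran from 17.5% at Mup6 to 100% at Mup22. The median was 65.9%, and PWK/PhJ was the highest strain at all 15. The part of read placement in this pattern was not tested.

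The rest of the family gave the members a frame. The 15 other Mup genes had a median of 51.8% state 1, and 14 of 15 were called higher than the genome, against 46.0% of all genes, the exception being Mup6, which had 0%. Mup6 lies next to Mup4, and their promoters were 92.3% identical. State 13 covered 0% to 5.0% of Mup6 in 8 strains and 75% in PWK/PhJ. In PWK/PhJ both genes were therefore mostly in state 13, in CAST/EiJ both were at 0%, and the difference between them was not tested. The divergence of the other Mup genes ran from 34.8% at Mup16 to 57.7% at Mup14, so Mup3 and Mup4 lay below all of them and Mup5 above. Outside the cluster, 20 flanking genes had a median of 5.16% state 1, and 18 of 20 had the same most frequent state in all strains.

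Among 19 genes of growth hormone signalling and liver transcription, 18 were called higher than the genome in state 1, a call that 46.0% of all genes received. Cish, a feedback inhibitor of Stat5 signalling, and the transcription factors Foxa2 and Cebpa had 100% of bins outside state 14, while Esr1, the oestrogen receptor, had 26.7% and Jak2 27.5%. The list's divergence had a median of 25.5%, against 41.1% for the 7 members. In the lists that follow, the median divergence was 50.8% for female-biased genes, 37.5% for male-biased genes and 26.8% for other lipocalin genes. Of 12 female-biased hepatocyte genes, 12 were higher in state 1, with a median of 29.8%, and of 12 male-biased genes 8 were, with a median of 14.8%, again against 46.0% of all genes. Cyp2a4, a steroid hydroxylase, reached 100% outside state 14 in the first list, against 36.6% at Cux2, a repressor of male-biased genes, and 65.8% at Hao2. In the male-biased list Nudt7 had 98.7% and Cyp2d9 93.7%, and the lowest were Cyp4a12a at 6.43% and Cyp4a12b at 10.3%. The 10 other lipocalin genes had a median of 50.1% state 1, against 57.2% at Mup1, 59.1% at Mup2 and 70.3% at Mup3. The lipocalin genes ran from 0% at Apod to 77.2% at Orm1. These medians describe the lists, and no test between lists was made.

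The genes whose state composition over the 9 strains was most like the mean of the 7 members were Inpp5b, Acnat1, Cela1, Fam160b1 and Aco1. Their total variation distance, the percent of bins that would have to change state, was 26.3%, 26.9%, 28.0%, 28.1% and 28.2%, against a median of 72.2% over all protein-coding genes. Because the 7 members differ among themselves, they lie farther from their own mean than these genes do, from 34.6% for Mup1 to 74.0% for Mup4.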

How the data were processed

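ChIP-seq libraries of 4 histone marks and input were grouped by the strain in their labels, 117 libraries in 9 strains. The deposited files are 1 segmentation per strain made by the authors, whose column 4 is a state number, a category and not a count, signal or score. Per the submitters' processing notes, the build was mm10 and FastQC 0.11.5 and MACS 1.4.2 were used, and the segmentation tool and the reads behind each bin are not given in the sources used here. The depth is thus unknown, and counting error cannot be given.

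Segmentations were written as 200-bp bins. Gene spans came from a RefSeq table of assembly GRCm38.p6, padded by 2 kb. Of its 21631 protein-coding genes, 108 that started before 3 Mb of a chromosome were left out, since chromosomes of this build begin with a gap of that length. Strand and starts came from RefSeq promoters, which hold Mup2, Mup3, Mup4 and Mup21. For Mup1, Mup5 and Mup20 both gene ends were used.

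The tests were an exact sign-flip permutation test over strains, limma 3.58.1 (R 4.3.3) and an exact permutation test, adjusted by the Benjamini-Hochberg method at 0.05. They use the spread between strains, which share ancestry. The wild-derived grouping follows the known origin of the strains. Code ran in Python 3.11.15 with numpy 2.4.6, pandas 2.3.3, Biopython 1.88 and matplotlib 3.10.9, and was tested on simulated data. The alternatives were other padding, span alone, each strain left out, autosomes, merged states, a match within 1 bin, an arcsine scale, all annotated genes and the exact test. All 7 members, the other Mup genes at the ends of a range or without a call, the 2 highest and 2 lowest genes of a list by share outside state 14, and the 5 genes most like the members are named by rule. A gene that this rule names is not reported here. Other genes named were chosen after their values were seen. The members and lists were chosen with earlier results of these data known.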

Additional observations from a re-analysis of the deposited data

Results flagged for a closer look

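With 9 strains, 30 sets of values at the members and the cluster were checked for a strain whose gap to the nearest other strain exceeded Dixon's critical value as a part of the whole range. This marked 14 values, and 9 of the 14 belong to PWK/PhJ. The usual rate gives about 1.5 marks, but it assumes normal values, which these percents are not. Where all strains but 1 lie at 0%, as for states 5 and 7 at Mup2, the remaining strain is marked at any value. The sets overlap in their bins, so the marks are not independent of each other.

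PWK/PhJ stood apart at Mup2 in states 5 and 7 (53.7% of bins, nearest strain 0%), in state 13 (4.88%, nearest 0%) and in its mean difference from the other strains (78.7%, nearest 52.4%). At Mup1 it did so in states 5 and 7 (20%, nearest 0%) and in state 13 (17.5%, nearest 0%). At Mup3 its share of state 1 was low (45%, nearest 65.0%) and its mean difference from the other strains high (48.1%, nearest 22.2%). Over the whole cluster it stood apart in state 13 (27.3%, nearest 12.7%) and in states 5 and 7 (16.7%, nearest 2.86%).

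CAST/EiJ stood apart at Mup4, outside state 14 (5.0%, nearest 72.5%), in state 13 (0%, nearest 70.0%) and in its mean difference from the other strains (93.1%, nearest 35.3%). C57BL/6J had 40.6% of the bins of Mup5 in states 5 and 7, with the next strain at 16.8%. NOD/ShiLtJ had 92.7% of the bins of Mup2 outside state 14, with the next strain at 97.6%.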

How the results depend on the processing

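Of 1221 values recomputed under an alternative, 1123 were labelled unchanged. For 135 of these, which are counts, the label means a change within a set ratio and not an equal count. The rest kept their direction and their side of the threshold or moved by less than the spread between strains. The counts of members higher than the genome, 7 outside state 14, 5 in state 1 and 2 in state 13, were the same with any single strain left out. With all annotated genes in place of protein-coding genes, 20991 genes were higher outside state 14 and 9185 in state 13. That set holds more genes and its share called is not given, so these counts do not compare with those of protein-coding genes.

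In the comparison of wild-derived with laboratory strains, 13 genes were called. The count was 22 on an arcsine scale, 38 over the larger set of all annotated genes, 0 by the exact permutation test (1522 at an unadjusted p under 0.05) and 6 to 247 with 1 strain left out, highest without WSB/EiJ. Of the members, 0 were called with 5 kb of padding (Mup5, limma, adjusted p = 0.055) and 0 to 1 with 1 strain left out. The difference of Mup4, -22.5 points, was 2.08 with states 13 and 14 merged and ran from -38.3 to 9.17 with 1 strain left out, the latter without CAST/EiJ.

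Of the pairs of members, 15 passed with states 13 and 14 merged, 17 in state 1 and 0 to 4 with 1 strain left out, against 3. Merging also turned Mup4 against the genome to -10.6 points, Mup4 minus Mup5 to -26.6, Mup4 minus Mup20 to -66.9 and Mup5 minus Mup20 to -40.4. With 5 kb of padding, Mup4 minus Mup2 turned to 2.29, Mup4 minus Mup21 to 12.4, Mup2 minus Mup1 to -9.11 and Mup5 minus Mup21 to 1.18. With 1 strain left out, Mup4 minus Mup5 ran from -1.09 to 11.6 and Mup4 minus Mup21 from -10.8 to 3.54. The cause of these changes was not tested.

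No paired analysis was possible because the segmentations combine the mice of a strain and carry no replicate number, so mice could not be paired by number. The sign-flip tests compare values within a strain. The unknown depth, the single value per strain and the close copies of these genes limit all values.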
